A study of Mus musculus with 8 samples.

Results

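The genes described here are the chaperones and folding enzymes of the endoplasmic reticulum and the genes of the unfolded protein response, measured in mouse epididymal fat. The set is a list of 32 gene symbols, and membership rests on the symbol alone. A probe set that carried 1 gene symbol was found for 31 of them, among 22180 genes named in this way on the array, and Pdia4 is not analysed here. All 31 passed the filter on dim genes that left 14787 genes for testing.

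The 8 mice were male C57BL/6, were housed singly from weaning at 3 weeks of age and were fed a fatty diet (45% of energy as fat) in which n-6 fatty acids predominated. In the GC+ group, 4 mice received prednisolone, a synthetic glucocorticoid, at 40 mg per kg per square metre each day in sweet potato puree from 6 weeks of age for 4 weeks. In the GC- group, 4 mice of the same strain, sex, age and diet received the puree alone. Fat was taken from the left epididymal pad at 10 weeks of age, and the RNA of each mouse was hybridised to 1 Affymetrix Mouse Gene 2.0 ST array.

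Secreted and membrane proteins fold inside the endoplasmic reticulum, where BiP (Hspa5), GRP94 (Hsp90b1), the lectins calnexin (Canx) and calreticulin (Calr) and the disulfide isomerases assist them. When unfolded protein builds up, 3 sensors in its membrane signal to the nucleus: IRE1 (Ern1) splices the Xbp1 transcript, PERK (Eif2ak3) phosphorylates the initiation factor eIF2 and so favours translation of Atf4, and ATF6 (Atf6) is cleaved to release a transcription factor. XBP1 and ATF6 raise chaperone and degradation genes, and ATF4 raises genes of amino acid supply and, under lasting stress, Ddit3 and Trib3. Fat cells secrete adipokines and lipases through this pathway, and the secretory epithelium of the epididymis, which lies against this fat pad, depends on it too. For the description, the genes were divided into 4 arms: 14 chaperones and folding enzymes, 4 sensor genes, 6 genes of the ATF4 arm and 7 genes of endoplasmic reticulum associated degradation.

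The promoters of many of these genes carry the endoplasmic reticulum stress element, ERSE, which is bound by NF-Y together with ATF6 or XBP1. It was searched for as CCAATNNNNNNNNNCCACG, on both strands, in the 250 bases before the start of each gene in the RefSeq promoter table of GRCm38.p6. A window was found for 28 of the 32 genes, and 9 of these 28 held the motif, against 35 of 27025 genes (0.13%) with a window. The 9 were Calr, Canx, Creld2, Derl3, Dnajc3, Hsp90b1, Hspa5, Pdia6 and Syvn1. The related ERSE-II, ATTGGNCCACG, was present in Herpud1 alone among the 28, against 0.037% of all genes. The ATF4 composite site TTGCATCA was present in Chac1 and Herpud1, against 0.918% of all genes, and the UPRE core TGACGTGG was present in 0 of the 28, against 0.603%. As spelled, ERSE, ERSE-II and the reverse of the UPRE core share the letters CCACG, so their matches could overlap, and the ATF4 site shares no such run with them. Stretches of 6 promoters are printed: 4 with ERSE, in genes that varied by different amounts between arrays, and 1 each with ERSE-II and the ATF4 site, for comparison. Capitals mark the motif, the letters run 5′ to 3′ on the strand of the gene, and a match is a description of these letters and not a site shown to be bound.
Hspa5, chr2:34772005-34772063, plus strand, ERSE: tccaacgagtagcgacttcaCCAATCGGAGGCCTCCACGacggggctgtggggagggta
Hsp90b1, chr10:86705513-86705676, minus strand, ERSE in both orientations: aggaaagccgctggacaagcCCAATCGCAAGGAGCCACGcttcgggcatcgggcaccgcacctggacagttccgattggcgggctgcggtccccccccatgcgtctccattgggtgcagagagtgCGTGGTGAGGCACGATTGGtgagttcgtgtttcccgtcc
Creld2, chr15:88819500-88819558, plus strand, ERSE in reverse orientation: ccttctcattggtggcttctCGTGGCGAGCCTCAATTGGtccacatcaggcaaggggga
Derl3, chr10:75893222-75893280, plus strand, ERSE in reverse orientation: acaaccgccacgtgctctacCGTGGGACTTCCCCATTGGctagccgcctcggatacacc
Herpud1, chr8:94386357-94386407, plus strand, ERSE-II: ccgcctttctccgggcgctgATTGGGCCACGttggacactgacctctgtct
Chac1, chr2:119351029-119351076, plus strand, ATF4 composite site: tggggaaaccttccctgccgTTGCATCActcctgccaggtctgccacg

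Values are log2 expression values, so a difference of 1 is a doubling, and values of different probe sets are not set against each other as levels. Correlations between arrays over the tested genes lay between 0.879 and 0.986. Arrays of both groups differed widely in transcripts of the epididymis. Gpx5, a glutathione peroxidase secreted by the epididymal epithelium, had values of 11.27, 13.81, 4.57 and 4.76 in GC+ mice 1 to 4, against 13.78, 4.19, 8.69 and 13.61 in GC- mice 1 to 4. GC+ mouse 2 and GC- mice 1 and 4 thus formed a high set of 3 arrays, from 13.61 to 13.81, and the other 5 arrays ranged from 4.19 to 11.27. The mean of the 27 epididymis markers on the array (of 31 listed) spanned 5.28 to 10.20 in GC+ mice and 5.25 to 10.72 in GC- mice. Adipocyte markers were bright on every array: the mean of 9 of 10 listed lay between 12.73 and 12.93 in GC+ mice and between 12.54 and 12.90 in GC- mice. It was 12.54 to 12.73 on the 3 arrays of highest Gpx5 and 12.73 to 12.93 on the other 5, so the adipocyte markers were on average lower where Gpx5 was high. The arrays were therefore compared both by treatment and by their Gpx5 value. In RNA of whole tissue, fewer cells of a type and less RNA per cell cannot be told apart.

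**Figure D1:**
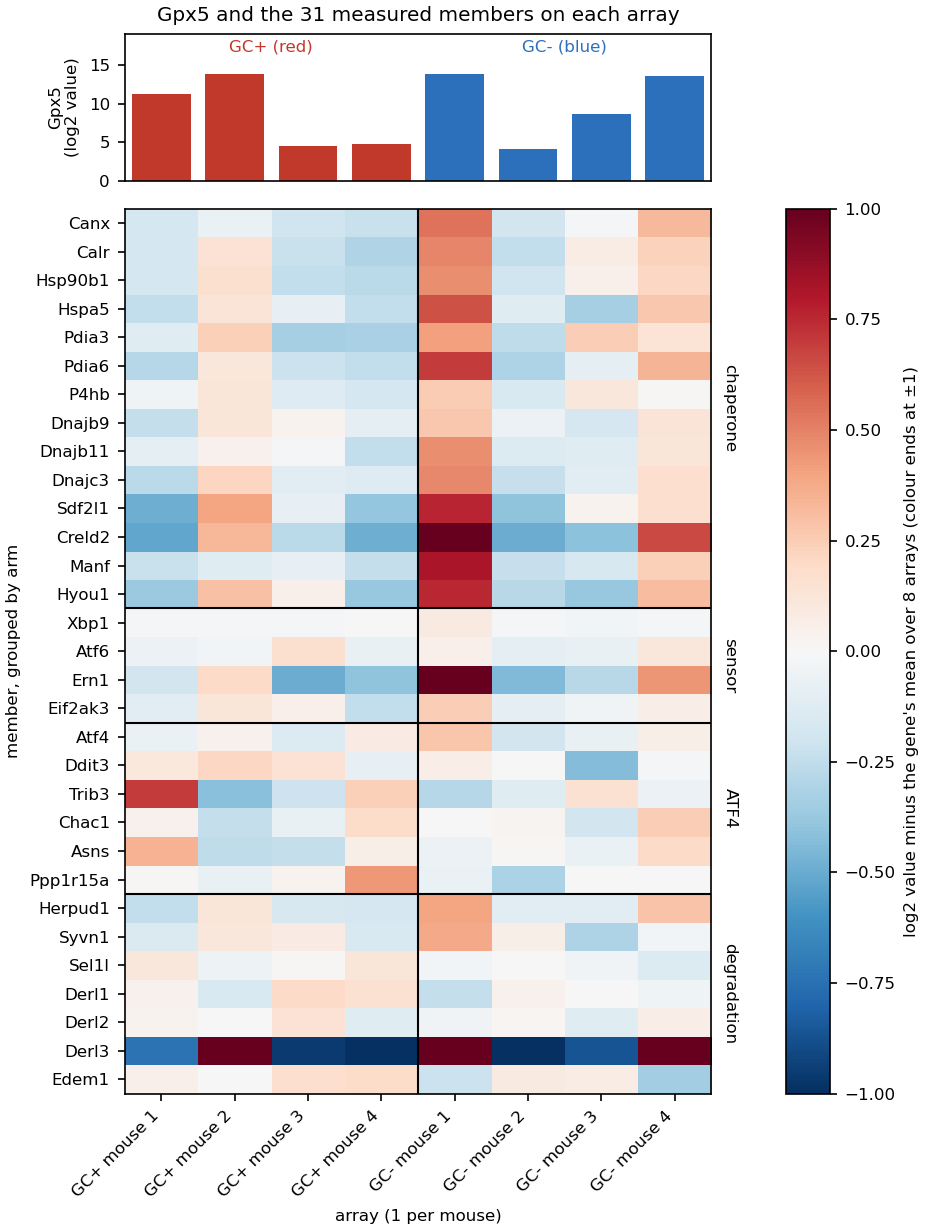
Upper panel: Gpx5 log2 value on each of the 8 arrays (bars from 0), GC+ mice in red and GC- mice in blue. Lower panel: for each of the 31 measured genes, its log2 value minus its mean over the 8 arrays, with the colour ending at ±1. The column of GC- mouse 1 is the reddest through the chaperone arm, and Derl3 is dark red on the 3 arrays with Gpx5 above 12.

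Of the 31 genes, 8 were higher and 23 lower on average in GC+ mice than in GC- mice, with a median difference of -0.11, against a median of 0.02 over all 14787 genes. With limma, 0 of the 31 had an adjusted p under 0.05 (background 0%), and 0 of the 31 had an unadjusted p under 0.05, against 842 genes or 5.69% of all tested. The values of the 2 groups overlapped in every one of the 31 genes, while they did not overlap in 3.2% of all genes.

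The chaperone arm was lower on average in GC+ mice in 14 of 14 genes, with a median difference of -0.27 and a range of -0.47 to -0.09, against a background of 45.4% of all genes lower. Hspa5 had values of 9.49, 9.86, 9.65 and 9.49 in GC+ mice, against 10.37, 9.61, 9.40 and 10.00 in GC- mice. GC- mouse 1 was highest and GC- mouse 3 lowest, so the GC+ mice lay inside the range of the GC- mice. The difference for Hspa5 was -0.22 ± 0.21 (SE, n = 4 each; limma adjusted p = 0.813). Canx, whose product holds glycoproteins during folding, had values of 11.49, 11.60, 11.47 and 11.44 in GC+ mice, against 12.21, 11.48, 11.65 and 11.99 in GC- mice. GC+ mice lay close together, and 3 of the 4 GC- mice were above all of them. The difference of -0.33 ± 0.15 had an unadjusted p of 0.0636 and an adjusted p of 0.768 by limma, and Calr, the soluble partner of Canx, differed by -0.27 ± 0.17.

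Creld2, a secreted disulfide isomerase induced by the unfolded protein response, had both the widest difference and the widest spread between mice in the chaperone arm. It had values of 8.63, 9.48, 8.88 and 8.66 in GC+ mice, against 10.34, 8.65, 8.74 and 9.81 in GC- mice. Its mean was 8.91 ± 0.39 in GC+ mice and 9.38 ± 0.83 in GC- mice (SD, n = 4 each), a difference of -0.47 ± 0.39 (SE). GC- mice 1 and 4 stood above the rest of their group, and GC+ mouse 2 stood above the rest of its own. Manf, a small luminal protein that is also secreted under stress, had values of 6.39, 6.49, 6.53 and 6.37 in GC+ mice, against 7.43, 6.38, 6.45 and 6.85 in GC- mice, where mouse 1 was apart. Pdia6, a disulfide isomerase that also restrains IRE1, had values of 10.80, 11.20, 10.87 and 10.84 in GC+ mice, against 11.79, 10.78, 11.00 and 11.43 in GC- mice. The differences were -0.33 ± 0.22 for Manf and -0.32 ± 0.22 for Pdia6 (SE), both with a limma adjusted p of 0.768.

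The other chaperone genes had smaller or similar differences. The co-chaperones of BiP that carry a J domain differed by -0.09 ± 0.12 (Dnajb9), -0.16 ± 0.14 (Dnajb11) and -0.15 ± 0.17 (Dnajc3, also called p58IPK). Hsp90b1 had values of 11.82, 12.16, 11.75 and 11.73 in GC+ mice, against 12.46, 11.80, 12.05 and 12.20 in GC- mice. It differed by -0.26 ± 0.16, and Sdf2l1, a component of the BiP complex, by -0.28 ± 0.27. Pdia3, which acts on glycoproteins with Canx and Calr, differed by -0.27 ± 0.17, and P4hb, the archetype of the disulfide isomerases, by -0.11 ± 0.11. Hyou1, the exchange factor for BiP, had values of 9.22, 9.88, 9.64 and 9.21 in GC+ mice, against 10.34, 9.31, 9.21 and 9.90 in GC- mice. Its difference was -0.20 ± 0.27, and 0.02 without GC- mouse 1. That mouse had the highest of the 8 values for 14 of 14 chaperone genes and for 21 of all 31 genes, against 19.3% of all genes. Without it the median difference of the chaperone arm was -0.10.

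The sensor genes did not pass the test either. Xbp1 was the steadiest of the 31 genes, with values of 10.41, 10.40, 10.41 and 10.42 in GC+ mice, against 10.51, 10.40, 10.39 and 10.41 in GC- mice. The array values as deposited are for the gene as a whole and do not separate spliced from unspliced Xbp1, and cleavage of ATF6 or phosphorylation of eIF2 was not measured. Atf6 differed by 0.00 ± 0.09 and Eif2ak3 by -0.09 ± 0.11. Ern1 varied far more, with values of 8.29, 8.66, 7.97 and 8.07 in GC+ mice, against 9.64, 8.03, 8.19 and 8.91 in GC- mice. Its difference was -0.45 ± 0.35 (SE, limma adjusted p = 0.783) and was -0.13 without GC- mouse 1.

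In the ATF4 arm, 3 genes were higher and 3 lower on average in GC+ mice, with a median difference of 0.06. Ppp1r15a, the stress-induced subunit that directs dephosphorylation of eIF2, had values of 7.36, 7.27, 7.38 and 7.78 in GC+ mice, against 7.28, 7.03, 7.34 and 7.34 in GC- mice. Ddit3, which encodes the transcription factor CHOP, had values of 7.95, 8.05, 7.99 and 7.76 in GC+ mice, against 7.91, 7.84, 7.41 and 7.83 in GC- mice. Both overlapped between the groups, with differences of 0.20 ± 0.13 for Ppp1r15a and 0.19 ± 0.13 for Ddit3 (SE). Trib3, a pseudokinase induced by ATF4 and CHOP, had values of 7.57, 6.45, 6.66 and 7.11 in GC+ mice, against 6.58, 6.75, 7.02 and 6.81 in GC- mice. GC+ mouse 1 was the highest and GC+ mouse 2 the lowest of the 8, the difference was 0.16 ± 0.23, and without GC+ mouse 1 it was -0.05. Asns, the asparagine synthetase, had its highest value, 9.72, in that same GC+ mouse 1, with 9.12, 9.14 and 9.43 in the other GC+ mice and 9.32, 9.39, 9.31 and 9.57 in GC- mice. The differences were -0.04 ± 0.14 for Asns, -0.04 ± 0.11 for Atf4 and -0.04 ± 0.12 for Chac1, a glutathione-degrading enzyme. Chac1 had values of 6.87, 6.59, 6.75 and 7.01 in GC+ mice, against 6.83, 6.85, 6.64 and 7.07 in GC- mice.

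In the degradation arm, 4 genes were higher and 3 lower on average in GC+ mice, with a median of 0.03. Herpud1, which helps to assemble the HRD1 ubiquitin ligase complex, had values of 9.72, 10.09, 9.81 and 9.80 in GC+ mice, against 10.36, 9.86, 9.86 and 10.25 in GC- mice. It differed by -0.23 ± 0.14, and Syvn1, the ligase HRD1 itself, by -0.05 ± 0.15. Edem1, which passes misfolded glycoproteins on to degradation, had values of 10.54, 10.49, 10.66 and 10.67 in GC+ mice, against 10.27, 10.58, 10.56 and 10.14 in GC- mice, a difference of 0.20 ± 0.12. Sel1l, the adaptor of HRD1, differed by 0.10 ± 0.07. Of the 3 derlins, membrane proteins of the export channel, Derl1 differed by 0.12 ± 0.10 and Derl2 by 0.03 ± 0.08. Derl2 and Edem1 each had 2 probe sets. The dimmer one gave 0.04 for Derl2 and 0.05 for Edem1.

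**Figure D2:**
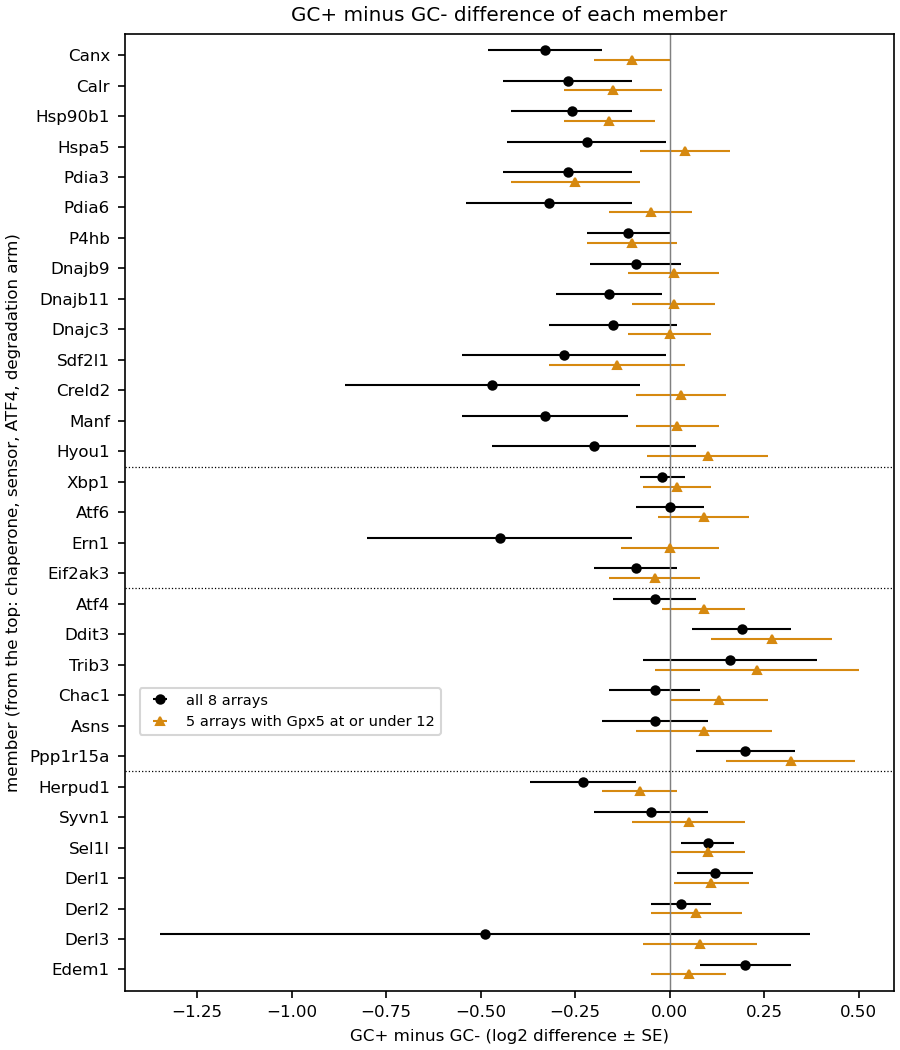
GC+ minus GC- difference (log2, horizontal axis) of each of the 31 genes with its standard error from limma, grouped by arm, for all 8 arrays (black circles) and for the 5 arrays with Gpx5 at or under 12 (orange triangles). All 14 chaperone genes lie below 0 over 8 arrays, 6 of them lie above 0 over 5 arrays, and Derl3 has the widest error.

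Derl3 had the widest spread of the 31 genes, 3.07 on the log2 scale between its highest and lowest array, which is an 8.37-fold range. Its values were 6.30, 8.82, 6.08 and 5.97 in GC+ mice, against 8.96, 5.90, 6.17 and 8.09 in GC- mice. The 3 high values were those of the 3 arrays with the highest Gpx5, and the other 5 arrays lay between 5.90 and 6.30, near the lowest mean of 5.82 that a tested gene could have. The treatment difference was -0.49 ± 0.86 (SE, limma adjusted p = 0.896). Without GC- mouse 1 it was 0.07, and without GC+ mouse 2 it was -1.17.

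Each gene was then fitted on the Gpx5 value in a model that also held the treatment, and a slope is given in log2 units of the gene per log2 unit of Gpx5. Slopes were above 0 for 25 of the 31 genes and below 0 for 6, against 40.2% of all genes above 0. By limma, 0 of the 31 passed an adjusted p of 0.05, as was so for 0% of the 14786 genes tested in that fit. At an unadjusted p under 0.05, 12 genes had a slope above 0, against 8.07% of all genes, and Derl1 and Edem1 had one below 0, against 8.4% of all genes.

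**Figure D3:**
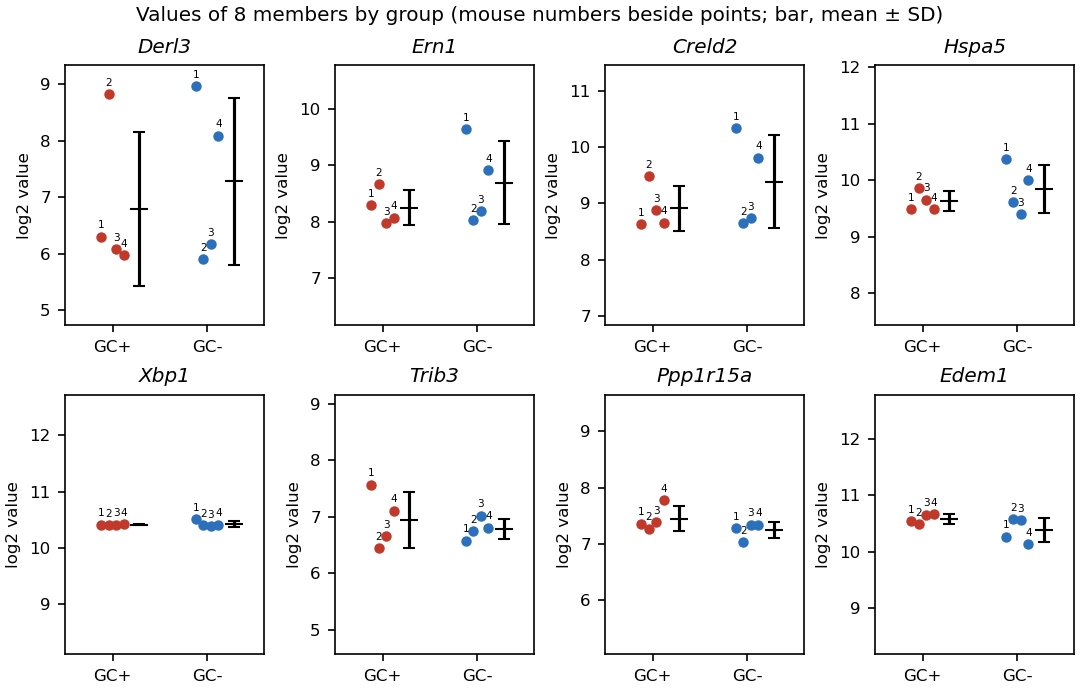
Log2 values of selected genes in GC+ mice (red, left) and GC- mice (blue, right), 1 numbered point per mouse, with the group mean and SD as bars. Vertical axes span the same number of log2 units in every panel; Derl3 splits into values above 8 and values of 6.30 or lower in both groups, while Xbp1 lies between 10.39 and 10.51 on all arrays.

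The slope was above 0 for 14 of 14 chaperone genes, with a median of 0.045 against -0.005 over all genes, and 9 of the 14 had an unadjusted p under 0.05. It was steepest for Creld2 (0.106 ± 0.035, SE), followed by Sdf2l1 (0.064 ± 0.026), Hyou1 (0.061 ± 0.028) and Pdia6 (0.058 ± 0.019). Hspa5 had a slope of 0.045 ± 0.021 with an unadjusted p of 0.071. The lowest adjusted p among the chaperones was 0.165, for Calr, whose slope was 0.049 ± 0.012. Among the sensors, all 4 slopes were above 0, with a median of 0.013, but Ern1 (0.101 ± 0.026) stood apart from Eif2ak3 (0.022 ± 0.012), Atf6 (0.004 ± 0.011) and Xbp1 (0.002 ± 0.008). The ATF4 arm had a median slope of 0.001, with 3 genes above and 3 below 0, between -0.009 for Trib3 and 0.021 for Atf4. In the degradation arm the slope was 0.266 ± 0.058 for Derl3 (limma unadjusted p = 0.00203, adjusted p = 0.161) and 0.035 ± 0.014 for Herpud1. It was -0.026 ± 0.009 for Derl1 and -0.031 ± 0.010 for Edem1 (limma adjusted p = 0.24 and 0.223). Slopes below 0 with an unadjusted p under 0.05 were found for 8.4% of all genes. The opposite signs are therefore not read as a trait of the arm.

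The high values lay on the 3 arrays of highest Gpx5 more than along its whole range. For 14 of the 31 genes, all 3 arrays with the highest Gpx5 lay above all other 5, against 8.35% of all genes. They were 10 of the 14 chaperones (Calr, Hsp90b1, Hspa5, Pdia6, Dnajb9, Dnajb11, Dnajc3, Sdf2l1, Creld2 and Hyou1), Ern1 and Eif2ak3 among the sensors, and Herpud1 and Derl3 in the degradation arm. For Derl1 and Edem1 the 3 arrays lay below the other 5, against 9.17% of all genes, and 0 of the 6 genes of the ATF4 arm did either. GC+ mouse 1, with a Gpx5 value of 11.27, did not share the high chaperone values. Its Creld2 value, 8.63, was the lowest of the 8, and its Hyou1 value, 9.22, lay near the lowest, 9.21.

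The mean over an arm of each value minus the gene's mean over the 8 arrays gives that arm a score on each array. The chaperone score was -0.25, 0.15, -0.13 and -0.27 in GC+ mice, against 0.59, -0.24, -0.09 and 0.24 in GC- mice. It was thus 0.15 to 0.59 on the 3 arrays of highest Gpx5 and -0.27 to -0.09 on the other 5. The sensor score was 0.07 to 0.39 on those 3 arrays and -0.18 to -0.07 on the other 5, and the degradation score 0.12 to 0.31 and -0.20 to -0.07. Without Derl3, a choice made after the data were seen, the degradation score overlapped, at -0.04 to 0.04 on the 3 arrays and -0.08 to 0.08 on the other 5. Likewise without Ern1 the sensor score overlapped, at 0.02 to 0.13 on the 3 arrays and -0.11 to 0.07 on the other 5. Neither score thus separated the 3 arrays once that gene was left out, although Eif2ak3 and Herpud1 were each highest on the 3 arrays by themselves. The ATF4 score overlapped, at -0.12 to 0.07 on the 3 arrays and -0.10 to 0.19 on the other 5. As a description over the 8 arrays, which share their tissue and normalization, Pearson's r with Gpx5 was 0.76 for the chaperone arm (Spearman's rho 0.67), 0.77 for the sensors (0.74), 0.08 for the ATF4 arm (-0.07) and 0.77 for the degradation arm (0.69). Without GC- mouse 2 and GC+ mouse 3, the arrays farthest from the median of Gpx5, r was 0.75, 0.78, -0.36 and 0.81 in the same order of arms. Without Derl3, r of the degradation score over the 8 arrays was -0.26, and without Ern1 that of the sensor score was 0.54.

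**Figure D4:**
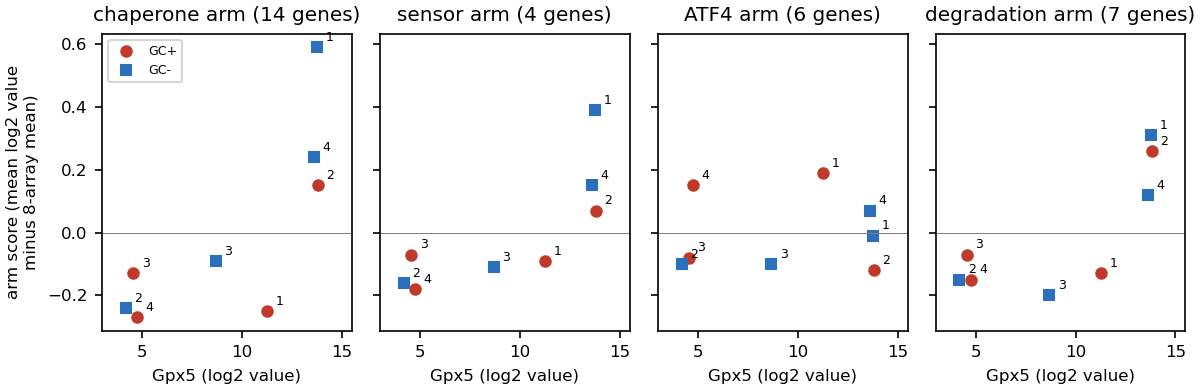
Score of each arm (mean over its genes of log2 value minus 8-array mean, vertical axis) against the Gpx5 log2 value (horizontal axis), 1 point per array, GC+ mice in red and GC- mice in blue. The 3 arrays at the right are above the other 5 for the chaperone, sensor and degradation arms. For the ATF4 arm they overlap with the other 5, and GC+ mouse 2 is the lowest of all, at -0.12. Scores without Derl3 or Ern1 are not drawn. The 3 arrays overlap with the other 5 once Derl3 is left out of the degradation arm or Ern1 out of the sensor arm.

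A mean over the 24 tested epididymis markers, Gpx5 among them, was also put in place of Gpx5 in the model. Some of these markers passed the filter only through a few high arrays. Spink12, for instance, was 10.65 and 10.09 in GC- mice 1 and 4 and 4.45 to 6.23 on the rest. The score thus follows the same high arrays and is not a measure independent of Gpx5. With that score 573 genes passed an adjusted p of 0.05 in limma, 3.28% of all genes with a slope above 0 and 0.595% with one below. Of the 31 genes, 6 were called with a slope above 0 and 0 with one below. They were Derl3 (adjusted p = 0.00353), Ern1 (0.0163), Creld2 (0.03), Hsp90b1 (0.0398), Calr (0.0407) and Pdia6 (0.0462), that is, a derlin, a sensor and 4 chaperones. Gpx5 on the linear scale, a choice made after the data were seen, called 4 of the 31 with a slope above 0, against 3.09% of all genes: Derl3 (8.33e-05), Creld2 (0.017), Ern1 (0.0368) and Herpud1 (0.0459). Both models held the treatment term and used the arrays of both groups.

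Among the 5 arrays with a Gpx5 value of 12 or lower, 3 from GC+ mice and 2 from GC- mice, the chaperone arm no longer lay on 1 side. Of its 14 genes, 6 were higher and 8 lower on average in GC+ mice, and the median difference was -0.03, against 0.01 over all genes. Creld2 differed by 0.03 ± 0.12, Hspa5 by 0.04 ± 0.12, Ern1 by 0.00 ± 0.13 and Derl3 by 0.08 ± 0.15 (SE). Pdia3 differed by -0.25 ± 0.17 and P4hb by -0.10 ± 0.12, close to their differences over 8 arrays, while Canx differed by -0.10 ± 0.10 and Calr by -0.15 ± 0.13. The ATF4 arm was higher on average in 6 of 6 genes there, by 0.09 to 0.32, against 53.6% of all genes, with the largest difference for Ppp1r15a (0.32 ± 0.17). No gene of the 31 had an unadjusted p under 0.05 in these 5 arrays. With all 8 arrays and Gpx5 as a covariate, the median of the chaperone arm was -0.19, against 0.01 over all genes. There 14 of 14 chaperone genes were lower, against 6937 lower and 7849 higher among all genes. Canx (-0.27 ± 0.11, SE) alone of the 31 passed the unadjusted threshold of 0.05 in that limma fit, which 887 of all tested genes passed. The adjusted threshold was passed by 0 genes.

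Markers of other cells that could be rich in chaperones were set beside these values. The mean of 9 plasma cell markers lay between 6.52 and 6.72 in GC+ mice and between 6.38 and 6.67 in GC- mice. Mzb1, the chaperone-associated protein of plasma cells, stayed between 6.19 and 6.93 on all arrays. The mean of 6 pancreatic acinar markers (of 9 listed) lay between 5.63 and 5.94 in GC+ mice and between 5.49 and 5.73 in GC- mice. Of these 6, 3 were under the filter on every array, and Cela1 ranged from 7.21 to 8.89. Macrophage markers ranged from 9.81 to 10.43 in GC+ mice and from 9.31 to 10.65 in GC- mice, and mesothelial markers from 8.05 to 8.90 and from 7.25 to 9.74. The macrophage mean was 9.31 to 9.81 on the 3 arrays of highest Gpx5 and 9.82 to 10.65 on the other 5, so it was lowest where the chaperone score was highest. Of these lists and the adipocyte and epididymis lists, the epididymis list alone was highest on the same 3 arrays as the chaperone score. Those arrays were picked by Gpx5, which is on the epididymis list, so its place there follows largely from that choice. The part of any of these cells in the chaperone values was not tested.

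The promoter motif was set beside the slopes. All 9 measured genes with an ERSE in the window had a slope on Gpx5 above 0, with a median of 0.046, against 40.2% of all genes above 0, and 7 of them had an unadjusted p under 0.05, against 8.07% of all genes. Most of the 9 are chaperones, and all 14 chaperone genes had a slope above 0 (median 0.045), with or without a match. Among those 14, Hyou1 and Manf had no window to search. The range was wide, from 0.015 ± 0.018 for Syvn1 to 0.266 ± 0.058 for Derl3, although both carry the motif. Ern1, with a slope of 0.101, and Pdia3, with 0.052 ± 0.013, had no match in their windows. Of 7 tested genes outside the list that hold an ERSE in their window, 4 had a slope above 0 and 3 below, with a median of 0.016. Of these 7, Hnrnpa3 and Ero1b had a slope above 0 with an unadjusted p under 0.05, and 1, Hnrnpa3, was called with the epididymis score (both named after their values were seen).

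Other genes of the same processes were counted by lists. Of 52 tested genes for other folding and translocation steps of the endoplasmic reticulum, 13 were higher and 39 lower on average in GC+ mice (median -0.14), and 42 had a slope on Gpx5 above 0 (median 0.024; 40.2% of all genes), 25 of them with an unadjusted p under 0.05 (8.07% of all genes). Spcs3, a signal peptidase subunit, had the clearest slope of this list, 0.063 ± 0.010 (SE, limma adjusted p = 0.157, and 0.012 with the epididymis score). Kdelr2, which retrieves luminal chaperones from the Golgi, differed by -0.35 ± 0.13 between GC+ and GC- mice (limma adjusted p = 0.768). Creld1, the membrane-bound relative of Creld2, was named for the lowest p of this list among higher differences and among slopes below 0. Its difference was 0.35 ± 0.15 (limma adjusted p = 0.768) and its slope -0.043 ± 0.012 (adjusted p = 0.183). Both signs were opposite to those of Creld2, but they were set by that choice.

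Of 39 other ATF4 and amino acid response genes, 22 were higher and 17 lower on average in GC+ mice, with a median of 0.02, and their slopes on Gpx5 split into 19 above and 20 below 0. Atf3, a stress-induced transcription factor, had values of 8.37, 8.16, 8.18 and 8.24 in GC+ mice, against 7.83, 7.88, 7.89 and 7.60 in GC- mice. The groups did not overlap, and the difference of 0.44 ± 0.09 had a limma adjusted p of 0.768. Ddit4, which restrains mTOR complex 1, differed by -1.09 ± 0.33, again with groups that did not overlap and an adjusted p of 0.768. Of the 39 genes, 1 lay apart higher and 1 lower, against 3.2% of all genes in either direction. Both were named for the lowest p in their direction, a choice that favours groups that do not overlap. Slc7a5, a transporter of large neutral amino acids, behaved like Derl3, with values of 7.84, 11.32, 7.61 and 7.71 in GC+ mice, against 10.50, 7.07, 7.78 and 9.70 in GC- mice. Its slope on Gpx5 was 0.318 ± 0.070 (adjusted p = 0.163, and 0.00767 with the epididymis score). Jdp2, a repressor related to ATF3, had a slope of -0.061 ± 0.018 (limma adjusted p = 0.199, and 0.0422 with the epididymis score).

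Of 30 other degradation genes, 21 were higher and 9 lower on average in GC+ mice, with a median of 0.06. With the epididymis score 0 of these 30 were called. That score called 10 of the 52 folding and translocation genes, all with a slope above 0. Of the 39 ATF4 and amino acid response genes it called 3 above 0 and 1 below, against 3.28% and 0.595% of all genes. Bcap31, a membrane chaperone that takes part in export, differed by 0.30 ± 0.11 (limma adjusted p = 0.768). Its slope was -0.033 ± 0.009 (adjusted p = 0.17). It was named for the lowest p among higher differences and among slopes below 0, so both signs were set by that choice. Erlec1, a lectin of the degradation machinery, differed by -0.31 ± 0.18 (limma adjusted p = 0.768), and Selenos had a slope of 0.028 ± 0.010 (0.237). Of 22 chaperones of the cytosol and mitochondria, 15 were higher and 7 lower on average in GC+ mice, with a median of 0.04. Their slopes were above 0 for 8 and below 0 for 14, and the epididymis score called 1 of the 22, above 0. Hsph1 differed by 0.47 ± 0.27 and Hspa1a by -0.81 ± 0.34, both with a limma adjusted p of 0.768. Hspa1a was 8.83 and 8.67 in GC- mice 1 and 4, on arrays of high Gpx5. It was 7.52 and 7.31 in GC- mice 2 and 3, against 7.11, 7.46, 7.28 and 7.25 in GC+ mice. Hspa1b had a slope of 0.092 ± 0.031 (limma adjusted p = 0.229) and Hspa4l one of -0.034 ± 0.011 (0.217). Hspa1a and Hspa1b are nearly identical in sequence, so their probes may share signal.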

How the data were processed

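The authors deposited log2 values made by robust multiarray averaging in Affymetrix Expression Console, per the sample labels and the submitters' processing notes, which also name Partek 6.6 without a role. This method equalises the distributions of the arrays, so a shift common to all genes is removed, and it compresses differences at low signal. The annotation version is not given in the sources used here, nor is a genome build. Of 41345 probe sets, 23521 had 1 gene symbol, 1814 several and 16010 none, and the brightest one-symbol probe set of each gene was kept. Genes in the lowest 33.3% by their 8-array mean, under a log2 value of 5.82, were not tested.

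Differences and slopes were fitted with lmFit and eBayes in limma 3.58.1 under R 4.3.3 on all tested genes, with Benjamini-Hochberg adjustment over all of them. The 2 fits were tested on simulated data. The 8 arrays limit the precision, and the median standard error of a treatment difference was 0.12. The labels call the mice biological replicates. Their replicate numbers are shared between groups, but deviations of same-numbered mice correlated at -0.192, -0.578, 0.13 and -0.276, so the numbers were not taken to pair mice. The genes, the lists of other pathway genes and the cell markers were chosen with earlier results of these data known. Named genes were all 32 listed genes and, per pathway list and fit, the gene of lowest p in each direction. Promoters came from the RefSeq table of GRCm38.p6, and the search covered 250 bases. Alternatives changed the filter, normalization, probe set, variance model, array weights, covariates and block, and left out each mouse. Those with linear Gpx5 and with Derl3 or Ern1 left out of a score were added after the data were seen.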

Additional observations from a re-analysis of the deposited data

Results flagged for a closer look

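In groups of 4 mice, the gap between the highest or lowest value and its nearest neighbour was divided by the range of the group and set against Dixon's critical value for groups of that size. Of 70 groups examined (31 genes and 4 arm scores in each treatment), 2 exceeded it, and chance gives about 1 in 20. Derl3 in GC+ mice had its highest value, 8.82, in mouse 2, far from the next, 6.30, with a gap of 0.882 of the range. That mouse also had the highest Gpx5 value of the 8, 13.81. Ddit3 in GC- mice had its lowest value, 7.41, in mouse 3, below the next, 7.83, with a gap of 0.838 of the range. Among the other ATF4 arm genes, the same mouse was lowest of the GC- mice for Chac1 (6.64) and barely so for Asns (9.31, beside 9.32 in mouse 1). It was highest for Trib3 (7.02), shared the highest value with mouse 4 for Ppp1r15a (7.34), and was neither for Atf4 (8.59).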

How the results depend on the processing

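With 4 mice a group, 0 genes and 0 of the 31 members were called for treatment under every alternative tried in limma. An unadjusted p under 0.05 was reached by 842 genes in the main fit. Over the alternatives this count ran from 436 (without GC- mouse 4) to 1980 (array quality weights). The replicate block was among the alternatives, and with it the chaperone median was again -0.27. Over all alternatives that median ran from -0.38 to -0.03. For the slope on Gpx5, 0 genes were called (unadjusted p under 0.05: 2435), against 187 with array quality weights, 3 without the treatment term, 573 with the epididymis score, 526 with linear Gpx5, and 0 to 81 with 1 mouse left out. Members called numbered 6 with the epididymis score, 4 with linear Gpx5 and 0 to 1 with 1 mouse left out (Derl3 without GC+ mouse 1, adjusted p = 0.0428). With the replicate block the chaperone slope median was 0.045, and the numbers gave no paired design. The ATF4 slope median was -0.005 to 0.018 with 1 mouse left out. Without arrays of Gpx5 above 12, slope medians were 0.001 for chaperones, 0.000 for sensors and -0.010 for degradation genes; r was not computed on those 5 arrays. With Derl3 left out of the degradation score r was -0.26, and with Ern1 left out of the sensor score 0.54, both chosen after seeing the data. The cause of these changes was not tested.

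Treatment differences that changed sign without arrays of Gpx5 above 12 were Asns 0.09, Atf4 0.09, Chac1 0.13, Creld2 0.03, Derl3 0.08, Dnajb11 0.01, Dnajb9 0.01, Hspa5 0.04, Hyou1 0.10, Manf 0.02, Syvn1 0.05 and Xbp1 0.02. Array weights gave Derl2 -0.01, and the epididymis score as covariate gave Derl3 0.01. With 1 mouse left out, ranges that crossed 0 were Hyou1 -0.36 to 0.02, Xbp1 -0.03 to 0.01, Atf4 -0.11 to 0.05, Trib3 -0.05 to 0.32, Chac1 -0.11 to 0.03, Asns -0.16 to 0.04, Syvn1 -0.16 to 0.07, Derl2 -0.01 to 0.08 and Derl3 -1.17 to 0.07.

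Slopes that changed sign without arrays of Gpx5 above 12 were Atf6 -0.011, Creld2 -0.011, Ddit3 -0.017, Derl2 -0.006, Dnajb9 -0.030, Dnajc3 -0.010, Herpud1 -0.010, Hspa5 -0.021, Hyou1 -0.030, Manf -0.003, Sdf2l1 -0.005, Sel1l 0.003, Syvn1 -0.033, Trib3 0.094 and Xbp1 -0.002. Subtracted array medians gave Atf6 -0.001, Derl2 -0.003 and Xbp1 -0.002, and array weights gave Ppp1r15a 0.002. Linear Gpx5 gave Asns -0.007. For Derl2, the mean of its probe sets gave -0.006, the more variable one -0.014 and repeated quantile normalization -0.004. The replicate block gave Asns -0.010 and Xbp1 -0.001. With 1 mouse left out, ranges that crossed 0 were Xbp1 -0.001 to 0.004, Atf6 -0.002 to 0.013, Trib3 -0.028 to 0.025, Chac1 -0.014 to 0.010, Asns -0.004 to 0.027, Ppp1r15a -0.028 to 0.010 and Derl2 -0.005 to 0.009.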

Other observations

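The epididymis markers did not have the same profile on the 3 arrays of highest Gpx5. Lcn8 was 13.50 in GC+ mouse 2, against 9.51 in GC- mouse 1 and 6.64 in GC- mouse 4, and Lcn9 was 13.61, against 10.12 and 5.81 in the same mice. Lcn5 ran the other way, at 10.22 in GC+ mouse 2, against 13.82 in GC- mouse 1 and 13.64 in GC- mouse 4. These lipocalins are known for expression in different regions of the epididymal duct. Derl3 and the amino acid transporter gene Slc7a5 were high on all 3 of these arrays, Slc7a5 most in GC+ mouse 2, at 11.32, while the chaperone genes Manf, at 6.49, and Canx, at 11.60, were within the range of the low-Gpx5 arrays in that mouse. Sdc1, listed as a plasma cell marker and also expressed by epithelia, was highest on the same 3 arrays, with 7.95 in GC+ mouse 2, against 7.61 and 7.70 in GC- mice 1 and 4. It was picked from that list: of its 8 tested genes, 1 had these arrays above the other 5 and 1 had them below. Mzb1, at 6.19, and Irf4, at 6.22, had their lowest values in GC- mouse 1.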
